A study of Mus musculus with 9 samples.

Results

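Gene expression was examined in cultured mouse cells labelled as RGCs, which stands for retinal ganglion cells. The name is kept only as a label, since several defining markers of this cell type were absent or barely detected, as given below. The genes examined were the 2 metallothionein genes Mt1 and Mt2, the metal-sensing factor gene Mtf1 and 6 genes of zinc transporters. The transporter genes were Slc30a1, Slc30a4, Slc39a1, Slc39a6, Slc39a10 and Slc39a14. These 9 genes were chosen by their symbols, with earlier results of these data known, out of 22322 genes in the expression table. Every one of the 9 passed the low-count filter, which kept 12145 genes for testing. Messenger RNA of 9 libraries was sequenced, with 3 wells in each of 3 groups. Normal RGCs received no D-galactose. Aging RGCs were exposed to D-galactose, a sugar used to induce an aging-like state in culture. The group named aging RGCs + USCs medium had the same exposure and was afterwards cultured in the conditioned medium of USCs, stem cells grown from human urine, with the USCs removed. All groups were of the WT genotype and came from purchased RGCs, which were maintained in high glucose medium with serum. The USCs were grown in a special medium for urine stem cells. The base medium of the medium group may therefore have differed too, and its part was not tested. Replicates were wells, so p-values measured the spread between wells, which may be technical.

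Metallothioneins are small, cysteine-rich proteins that bind zinc and copper and buffer the free zinc of the cytosol. Mtf1 encodes a zinc finger factor which is activated by zinc and binds metal response elements in the promoters of Mt1, Mt2 and Slc30a1. Transporters of the SLC30 family move zinc out of the cytosol, either out of the cell or into vesicles, whereas those of the SLC39 family bring zinc into the cytosol. In the retina, zinc is held in photoreceptors, pigment epithelium and synaptic vesicles, and metallothioneins are best known there from glia and pigment epithelium.

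The promoters of the metallothioneins and of the exporter gene Slc30a1 are shown because they carry the letters that MTF1 is known to read. Each runs over 280 bases, from 250 bases before the RefSeq start to 30 bases after it, 5′ to 3′ on the gene's own strand in GRCm38.p6. Capitals mark matches to TGCACNC or TGCGCNC on either strand.
Mt1, chr8:94178839-94179118: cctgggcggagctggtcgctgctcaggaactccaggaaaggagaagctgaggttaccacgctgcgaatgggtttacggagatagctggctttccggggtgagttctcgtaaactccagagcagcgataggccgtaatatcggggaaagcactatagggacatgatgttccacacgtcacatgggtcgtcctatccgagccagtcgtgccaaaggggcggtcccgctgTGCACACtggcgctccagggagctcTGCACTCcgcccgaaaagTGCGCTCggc
Mt2, chr8:94172368-94172647: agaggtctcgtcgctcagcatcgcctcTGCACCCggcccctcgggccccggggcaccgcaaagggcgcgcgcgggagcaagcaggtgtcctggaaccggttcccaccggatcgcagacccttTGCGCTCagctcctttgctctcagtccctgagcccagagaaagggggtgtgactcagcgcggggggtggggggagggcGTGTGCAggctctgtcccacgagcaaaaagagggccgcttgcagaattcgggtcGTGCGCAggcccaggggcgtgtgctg
Slc30a1, chr1:191906531-191906810: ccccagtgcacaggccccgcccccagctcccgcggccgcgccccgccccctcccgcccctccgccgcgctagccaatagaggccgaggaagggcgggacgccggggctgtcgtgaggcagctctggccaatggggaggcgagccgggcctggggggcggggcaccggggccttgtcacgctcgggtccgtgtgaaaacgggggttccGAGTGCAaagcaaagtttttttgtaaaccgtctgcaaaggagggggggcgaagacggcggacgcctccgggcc
The Mt1 window held 3 matches and the Mt2 window 4, and the Slc30a1 window held 1. Counted in bases from the RefSeq start, they lay at -23, 3 and 21 in Mt1, at -223, -128, -50 and 5 in Mt2, and at -43 in Slc30a1. Positive positions lie after that start. Positions and counts hold for this start and window only, and another start of the same gene could change both. Of 32851 mouse promoters of the same length, 24.1% held at least 1 match, 1.73% at least 3 and 0.405% at least 4. Slc30a4, a transporter that loads zinc into vesicles, had 3 matches in its window, and Mtf1, Slc39a1 and both windows of Slc39a10 had 0. Promoters of 7 of the 9 genes were in the RefSeq table, with 2 windows for Slc39a10, and Slc39a6 and Slc39a14 were not matched. A STAT site, TTCNNNGAA, was found in 1 of the 2 windows of Slc39a10, which starts upstream of the GENCODE span of the gene, and in no window of the other 6 genes, against 7.83% of all promoters. An antioxidant response element, TGACNNNGC, was found once each in Mt2, Slc30a1 and Slc39a1, against 11.5% of all promoters. These matches describe the letters and are not evidence of binding.

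Per transcript length, the metallothioneins were the most abundant of the 9 in every group. In normal RGCs, the mean FPKM (fragments scaled by transcript length and library size) was 458 ± 74.6 (SD, n = 3) for Mt2 and 199 ± 13.9 for Mt1. Slc30a4 followed at 108 ± 3.23, ahead of Slc39a1 at 70.2 ± 1.72. Slc39a14 had 33.3, Slc39a6 had 27.7, Slc39a10 had 22.2 and Mtf1 had 5.82 FPKM, and Slc30a1 was the lowest at 0.88 ± 0.25. The ranges of neighbouring genes in this order did not overlap in any group. The order changed at 1 place in aging RGCs, where Slc39a6 at 34.8 lay above Slc39a14 at 26.2. In aging RGCs + USCs medium, Mt2 reached 2157 ± 28.8 FPKM and Mt1 734 ± 16, whereas the transporters lay between 0.85 for Slc30a1 and 80.2 for Slc30a4.

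Mt1 increased in aging RGCs and increased again in aging RGCs + USCs medium. Its levels are given as CPM, which set each count against the library total after TMM scaling. They were 97.8, 111 and 111 in normal RGCs, 248, 266 and 260 in aging RGCs, and 416, 419 and 429 in aging RGCs + USCs medium. The 3 groups formed 3 steps with no overlap. Mt1 was upregulated 2.42-fold in aging RGCs compared with normal RGCs (log2 fold change 1.27, SE 0.0424, edgeR adjusted p = 1.18e-19). It was a further 1.63-fold higher with USCs medium than in aging RGCs (log2 fold change 0.71, SE 0.0394, edgeR adjusted p = 1.21e-14), and 3.95-fold higher than in normal RGCs (log2 fold change 1.98, edgeR adjusted p = 7.53e-24). All p-values of this kind came from the quasi-likelihood test of edgeR with Benjamini-Hochberg adjustment over the 12145 genes tested.

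Mt2 rose mostly in the medium group. Its CPM values were 195, 268 and 220 in normal RGCs, 327, 345 and 326 in aging RGCs, and 1138, 1167 and 1140 in aging RGCs + USCs medium. The groups were again in 3 separate steps, but the larger step was the later one. The increase in aging RGCs was 1.46-fold (log2 fold change 0.55, SE 0.0602, edgeR adjusted p = 1.69e-08). With USCs medium, Mt2 was upregulated 3.45-fold compared with aging RGCs (log2 fold change 1.79, SE 0.0589, edgeR adjusted p = 9e-20) and 5.05-fold compared with normal RGCs (log2 fold change 2.34, edgeR adjusted p = 2.07e-22).

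**Figure D1:**
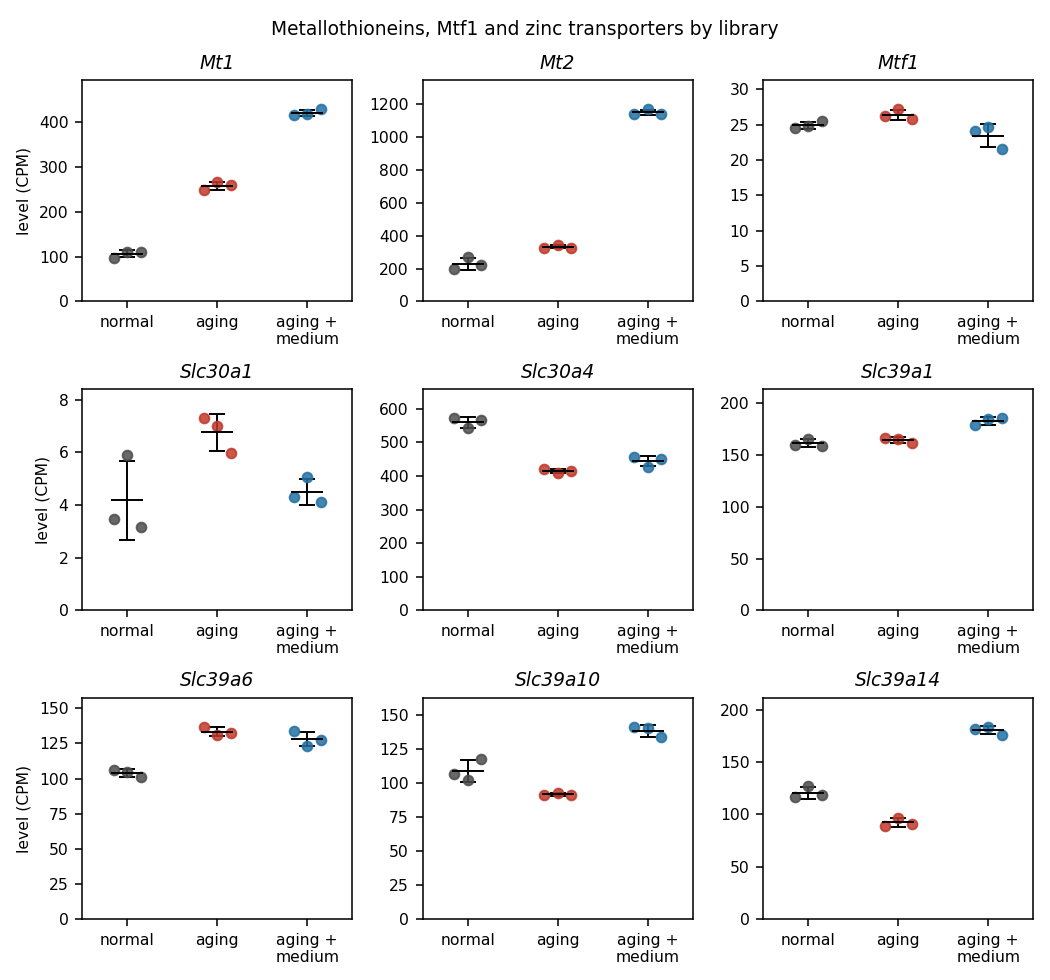
Levels of the 9 genes in CPM (vertical axis, from 0) in each library of the 3 groups. Points are libraries, and bars show the mean and SD of 3 libraries. Mt1 and Mt2 rise in 3 steps without overlap, whereas Slc39a10 and Slc39a14 are lowest in aging RGCs and highest with medium.

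The ratio between the metallothioneins was therefore not constant. Mt2 counts per Mt1 count were 1.99, 2.41 and 1.98 in normal RGCs, 1.32, 1.30 and 1.25 in aging RGCs, and 2.74, 2.79 and 2.65 with USCs medium. Aging RGCs had the lowest ratio and the medium group the highest, with no overlap between any 2 groups. The mean ratios were 2.12 ± 0.245, 1.29 ± 0.0325 and 2.73 ± 0.0671 (SD, n = 3). Each pairwise comparison had a two-sided exact permutation p of 0.1, which is the smallest that 3 against 3 libraries can give. The summed level of both genes was 335 ± 43.7 CPM in normal RGCs, 591 ± 17.9 in aging RGCs and 1570 ± 16.1 with USCs medium. This sum increased 1.77-fold from normal to aging RGCs and 2.66-fold from aging RGCs to the medium group, again at the smallest possible exact permutation p of 0.1. Mt2 lies at chr8:94172664-94173568 and Mt1 at chr8:94179082-94180327 in GRCm38, both on the plus strand and 5513 bases apart. An antisense gene, Gm45774, overlaps Mt2 and was not analysed here, and the sources used here do not say whether counting used the strand.

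**Figure D2:**
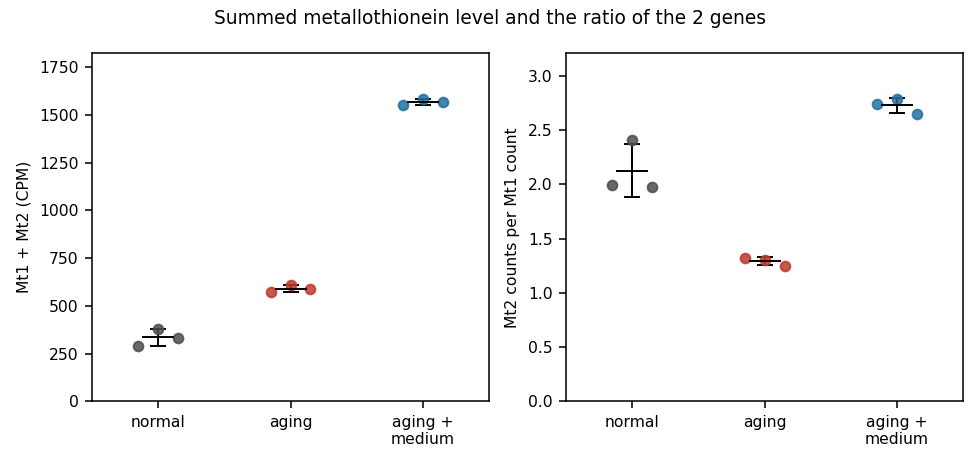
Summed CPM of Mt1 and Mt2 (left) and Mt2 counts per Mt1 count (right) in each library, both axes from 0. Points are libraries, and bars show the mean and SD of 3 libraries. The sum rises in steps, while the ratio is lowest in aging RGCs at 1.25 to 1.32 and highest with medium at 2.65 to 2.79.

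Mtf1, the gene of the zinc sensor, varied little by counts. Its CPM values were 24.5, 24.8 and 25.5 in normal RGCs, 26.2, 27.2 and 25.8 in aging RGCs, and 24.1, 24.7 and 21.6 with USCs medium. Aging RGCs were slightly above the other groups in all 3 libraries. The difference from normal RGCs did not pass the test (log2 fold change 0.08, 95% interval -0.05 to 0.22, edgeR adjusted p = 0.349). Compared with aging RGCs, Mtf1 was 1.13-fold lower with USCs medium (log2 fold change -0.17, SE 0.0707, edgeR adjusted p = 0.0445). This call was lost when DESeq2 was used (adjusted p = 0.0912), without the low-count filter (edgeR adjusted p = 0.0791), and in 7 of the 9 fits that left out a library (edgeR adjusted p up to 0.243). Medium-treated and normal RGCs overlapped (log2 fold change -0.09, 95% interval -0.23 to 0.05, edgeR adjusted p = 0.293).

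The FPKM of Mtf1 gave another picture, with means of 5.82 ± 0.567 for normal, 4.22 ± 0.384 for aging and 3.27 ± 0.567 for medium-treated RGCs (SD, n = 3). The transcript length that turns the count of a library into its FPKM was 3910, 4627 and 4774 bases in normal RGCs. It was 5734, 6688 and 6692 bases in aging RGCs and 7167, 6116 and 7626 bases with USCs medium. The implied length was thus longer in every library of the D-galactose groups than in any normal library. It was 1.44-fold higher in aging than in normal RGCs and 1.57-fold higher with USCs medium than in normal RGCs, each at an exact permutation p of 0.1, the smallest possible. GENCODE lists 5 transcripts of Mtf1, of 636 to 7631 bases, at chr4:124802104-124849800. Mtf1 was the only one of the 9 genes with counts that were not whole numbers, and they were so in all 9 libraries. It overlaps 1110065P20Rik on the other strand, which had counts of 128 to 197, so without strand the reads of the pair cannot be told apart there. With limma on log2(FPKM + 1), Mtf1 was lower in aging than in normal RGCs (log2 fold change -0.39, adjusted p = 0.0149), opposite in sign to the count test. In the same limma fit it was lower with USCs medium than in normal RGCs (log2 fold change -0.68, adjusted p = 0.000311), and on log2(FPKM + 0.1) this difference was -0.82 (adjusted p = 0.000319).

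Slc30a1 encodes the zinc exporter of the plasma membrane and lies at chr1:191906767-191913247. It was expressed at a low level and was highest in aging RGCs. Its counts were 80, 122 and 64 in normal RGCs, 135, 136 and 118 in aging RGCs, and 84, 102 and 80 with USCs medium. In CPM these were 3.46, 5.91 and 3.16, then 7.30, 7.0 and 5.97, then 4.31, 5.06 and 4.10. Aging RGCs lay above both other groups, although normal replicate 2 at 5.91 came close to the lowest aging library. Slc30a1 increased 1.62-fold in aging RGCs (log2 fold change 0.70, SE 0.183, edgeR adjusted p = 0.00253). Leaving out 1 library gave log2 fold changes of 0.53 to 1.02, with 1.02 without normal replicate 2, and other settings gave 0.33 to 0.72. Slc30a1 was 1.5-fold lower with USCs medium than in aging RGCs (log2 fold change -0.59, SE 0.183, edgeR adjusted p = 0.00828). Levels with USCs medium and in normal RGCs were not told apart (log2 fold change 0.11, 95% interval -0.27 to 0.49, edgeR adjusted p = 0.642). Normal replicate 2 decided this last value, since without it the medium group was higher (log2 fold change 0.44, edgeR adjusted p = 0.0443), and without normal replicate 1 or 3 the difference was -0.01 or -0.05. Among the genes with metal response letters in their windows, Mt1, Mt2 and Slc30a1 were higher in aging than in normal RGCs. Their log2 fold changes were 1.27, 0.55 and 0.70, and Slc30a4, which also has such letters, was lower at -0.43. With USCs medium against aging RGCs, Mt1 and Mt2 were higher, Slc30a1 was lower and Slc30a4 was higher by 0.10 on the log2 scale. At least 1 match, as in Slc30a1, was found in 24.1% of all promoters. A link between the letters and these changes was not tested.

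Slc30a4 loads zinc into endosomes and secretory vesicles and lies at chr2:122681233-122702663 on the minus strand. Levels were 573, 542 and 567 CPM in normal RGCs, 421, 408 and 416 in aging RGCs, and 456, 427 and 450 with USCs medium. The normal libraries were above all others. It was downregulated 1.35-fold in aging RGCs (log2 fold change -0.43, SE 0.0327, edgeR adjusted p = 1.11e-11) and remained 1.26-fold lower with USCs medium than in normal RGCs (log2 fold change -0.34, edgeR adjusted p = 6.24e-10). The difference between the medium group and aging RGCs was small (log2 fold change 0.10, SE 0.0329, edgeR adjusted p = 0.0148). It was lost without TMM factors (log2 fold change 0.02, edgeR adjusted p = 0.662), without aging replicate 2 (edgeR adjusted p = 0.0592) and without medium replicate 1 (edgeR adjusted p = 0.0787).

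Among the 4 SLC39 importers of the 9 genes, Slc39a14 had the largest change with USCs medium. Its protein brings in zinc and also iron and manganese, and in liver it is induced by interleukin-6. The CPM values were 117, 127 and 118 in normal RGCs, 88.8, 97.1 and 91.2 in aging RGCs, and 182, 183 and 176 with USCs medium. Aging RGCs were the lowest and the medium group the highest, with no overlap. Slc39a14 was downregulated 1.31-fold in aging RGCs (log2 fold change -0.39, SE 0.0431, edgeR adjusted p = 2.44e-08). With USCs medium it was 1.95-fold higher than in aging RGCs (log2 fold change 0.97, SE 0.0423, edgeR adjusted p = 6.19e-17) and 1.49-fold higher than in normal RGCs (log2 fold change 0.58, SE 0.041, edgeR adjusted p = 1.09e-12). The implied transcript length of Slc39a14 ranged over 3632 to 3920 bases for normal, 3229 to 3862 for aging and 2835 to 2956 for medium-treated libraries. It was thus shorter in all 3 medium-treated libraries than in the other 6, at the smallest possible exact permutation p of 0.1 against each group. The gene, at chr14:70303469-70351425, has 13 transcripts in GENCODE, of 364 to 5117 bases. Mt1 and Mt2 kept implied lengths of 550 to 552 and 511 bases over the 9 libraries, and Slc39a1 kept 2364 bases. Implied lengths also varied within groups, over 4216 to 5498 bases for Slc39a10 in aging and 4038 to 5266 for Slc30a1 in normal RGCs. For these genes the groups were not told apart, at exact permutation p of 0.4 to 0.9.

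**Figure D3:**
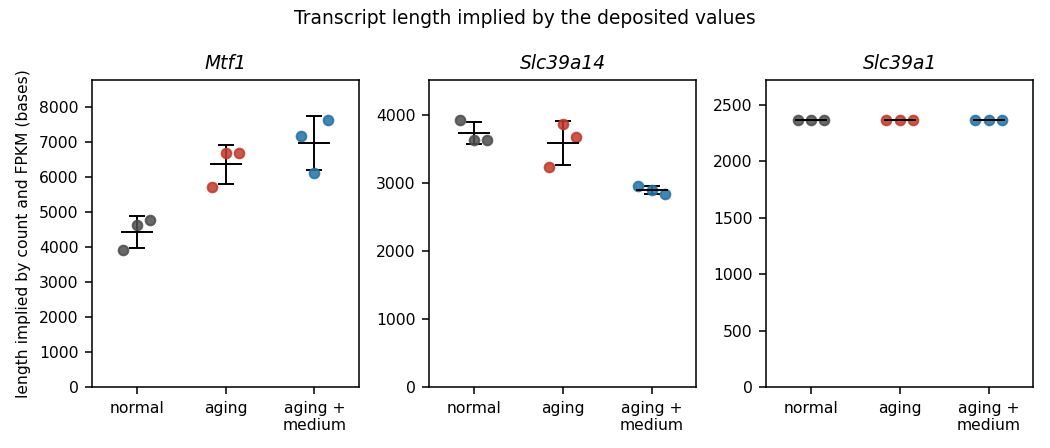
Transcript length in bases implied by the deposited count and FPKM of each library (vertical axis, from 0) for Mtf1, Slc39a14 and Slc39a1. Points are libraries, and bars show the mean and SD of 3 libraries. Mtf1 is longer in both D-galactose groups, Slc39a14 is shorter with medium at 2835 to 2956 bases, and Slc39a1 stays at 2364 bases. Slc39a10 and Slc30a1, whose implied lengths varied within groups, are not drawn.

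Slc39a10, an importer of the plasma membrane that pairs with the Slc39a6 protein, had the same order of groups as Slc39a14. Its CPM values were 107, 102 and 118 in normal RGCs, 91.3, 92.9 and 91.2 in aging RGCs, and 141, 141 and 133 with USCs medium. Again the aging libraries were lowest and the medium libraries highest, without overlap. The decrease in aging RGCs was 1.19-fold (log2 fold change -0.25, SE 0.0461, edgeR adjusted p = 6.99e-05), and the increase with USCs medium over aging RGCs was 1.51-fold (log2 fold change 0.59, SE 0.0456, edgeR adjusted p = 1.12e-11). Medium-treated RGCs were 1.27-fold above normal RGCs (log2 fold change 0.35, edgeR adjusted p = 1.19e-07). With limma on log2(FPKM + 1), the decrease in aging RGCs (adjusted p = 0.209) and the difference between medium-treated and normal RGCs (adjusted p = 0.0563) did not pass.

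Slc39a6 moved differently from Slc39a10. Libraries had 106, 105 and 101 CPM in normal RGCs, 137, 131 and 132 in aging RGCs, and 134, 123 and 127 with USCs medium. Both D-galactose groups lay above the normal libraries and overlapped each other. It increased 1.28-fold in aging RGCs (log2 fold change 0.36, SE 0.0404, edgeR adjusted p = 2.82e-08) and was 1.23-fold higher with USCs medium than in normal RGCs (log2 fold change 0.30, edgeR adjusted p = 2.72e-07). The difference between the medium group and aging RGCs did not pass (log2 fold change -0.06, 95% interval -0.14 to 0.02, edgeR adjusted p = 0.232), although it passed without TMM factors (log2 fold change -0.14, edgeR adjusted p = 0.00585). Slc39a6 overlaps Elp2 on the other strand, which had counts of 2210 to 2878 in these libraries, so without strand their reads cannot be told apart in the overlap.

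Slc39a1, a widely expressed zinc importer at chr3:90248172-90253612, differed between groups by at most 1.13-fold. It had 160, 166 and 159 CPM in normal RGCs, 166, 166 and 161 in aging RGCs, and 179, 184 and 186 with USCs medium. Normal and aging RGCs overlapped (log2 fold change 0.03, 95% interval -0.04 to 0.10, edgeR adjusted p = 0.566), and the medium libraries were above both. The increase with USCs medium was 1.11-fold over aging RGCs (log2 fold change 0.15, edgeR adjusted p = 0.000621) and 1.13-fold over normal RGCs (log2 fold change 0.18, edgeR adjusted p = 7.1e-05). Neither increase passed without TMM factors (edgeR adjusted p = 0.0795 and 0.0532).

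Counted together, 4 of the 9 genes were higher (Mt1, Mt2, Slc30a1 and Slc39a6) and 3 were lower (Slc30a4, Slc39a10 and Slc39a14) in aging than in normal RGCs. Of all genes tested, 23.5% were higher and 23.0% lower in this comparison. With USCs medium compared with aging RGCs, 6 genes were higher (Mt1, Mt2, Slc30a4, Slc39a1, Slc39a10 and Slc39a14) and 2 were lower (Mtf1 and Slc30a1), against 27.1% and 26.0% of all genes. Compared with normal RGCs, 6 were higher in the medium group (Mt1, Mt2, Slc39a1, Slc39a6, Slc39a10 and Slc39a14) and 1 was lower (Slc30a4), against 30.6% and 29.9%. Groups did not overlap for 8 of the 9 genes in aging against normal RGCs, for 8 in the medium group against aging RGCs and for 7 in the medium group against normal RGCs. The same held for 53.0%, 59.8% and 63.8% of all genes tested. The median log2 fold change of the 9 genes was 0.08, 0.15 and 0.30 in these comparisons, where that of all genes was 0.002, -0.007 and -0.013. With 9 genes, these counts describe the genes named and no more. The 3 comparisons share their libraries, so their values are not independent of one another.

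DEGs were genes that passed the test with at least a doubling or halving, a log2 fold change of 1 in size. Mt1 was the only DEG of the 9 in aging against normal RGCs, where 1.09% of all genes tested were upregulated DEGs. Mt2 was the only one with USCs medium against aging RGCs, where 1.24% were. Both metallothioneins were upregulated DEGs in the medium group against normal RGCs, where 1.47% were. Slc39a14 lay just under this line at 0.97 with USCs medium against aging RGCs, and it was 0.94 to 1.0 when any 1 library was left out, with 1.0 without aging replicate 2. With limma on log2(FPKM + 1), whose FPKM carry the shorter implied length, it was 1.16.

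**Figure D4:**
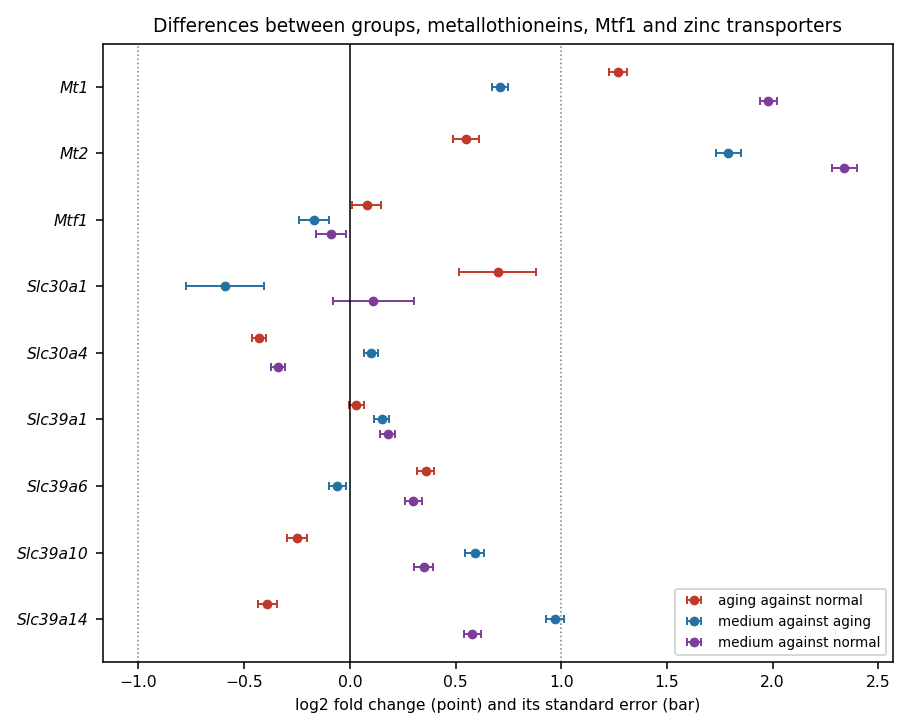
Log2 fold changes (points) with standard errors (bars) of the 9 genes in the 3 comparisons, with dotted lines at a log2 fold change of -1 and 1. Mt1 passes the line in aging against normal RGCs at 1.27, and Mt2 passes it with medium against aging RGCs at 1.79.

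The remaining members of the metallothionein, SLC30 and SLC39 families, with the zinc efflux gene Tmem163, made up 21 genes in the table, of which 12 were tested. Mt3, the brain metallothionein, was at 0 counts in all 9 libraries, as were Slc30a8 and Slc30a10. Mt4 had at most 9 counts in a library and was not tested. In aging against normal RGCs, 3 of the 12 were higher (Slc39a3, Slc39a11 and Slc39a13) and 2 were lower (Slc30a9 and Slc39a7). With USCs medium against aging RGCs, 4 were higher (Slc30a2, Slc30a6, Slc30a7 and Slc39a7) and 4 lower (Slc39a3, Slc39a4, Slc39a11 and Slc39a13). Against normal RGCs, 3 were higher and 3 lower in the medium group. Of all genes tested, 23.5% and 23.0%, 27.1% and 26.0%, and 30.6% and 29.9% were higher and lower in these comparisons, so most of these counts lie near the shares of all genes. Their median log2 fold changes were -0.02, -0.02 and 0.02.

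Slc39a4, the zinc importer of the intestine, was the clearest of these. Its CPM values were 7.66, 6.35 and 7.45 in normal RGCs, 6.86, 6.95 and 7.29 in aging RGCs, and 1.85, 2.58 and 2.15 with USCs medium. All medium libraries were far below the other 6. It was downregulated with USCs medium compared with aging RGCs (log2 fold change -1.68, SE 0.167, edgeR adjusted p = 1.82e-09) and compared with normal RGCs (log2 fold change -1.70, SE 0.165, edgeR adjusted p = 6.6e-10). Slc30a2, which fills secretory vesicles with zinc, rose from very few reads, with counts of 6, 1 and 1 in normal RGCs, 2, 8 and 0 in aging RGCs, and 16, 17 and 20 with USCs medium. It passed the test in the medium group against aging RGCs (log2 fold change 2.33, SE 0.626, edgeR adjusted p = 0.00254), a size that few counts leave imprecise. Slc30a3, the transporter of synaptic vesicles, had counts of 14, 18 and 13 in normal RGCs, 2, 10 and 8 in aging RGCs, and 1, 8 and 5 with USCs medium. It was lower with medium than in normal RGCs (log2 fold change -1.55, SE 0.565, edgeR adjusted p = 0.0194). Slc39a3, an importer of the plasma membrane, was 0.78 higher on the log2 scale in aging than in normal RGCs (SE 0.127, edgeR adjusted p = 1.17e-05) and fell by 0.68 with USCs medium compared with aging RGCs (SE 0.128, edgeR adjusted p = 5.2e-05). Slc39a11 and Slc39a13 had the same signs, with 0.31 and 0.34 in aging against normal RGCs and -0.28 and -0.35 in the medium group against aging RGCs.

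**Figure D5:**
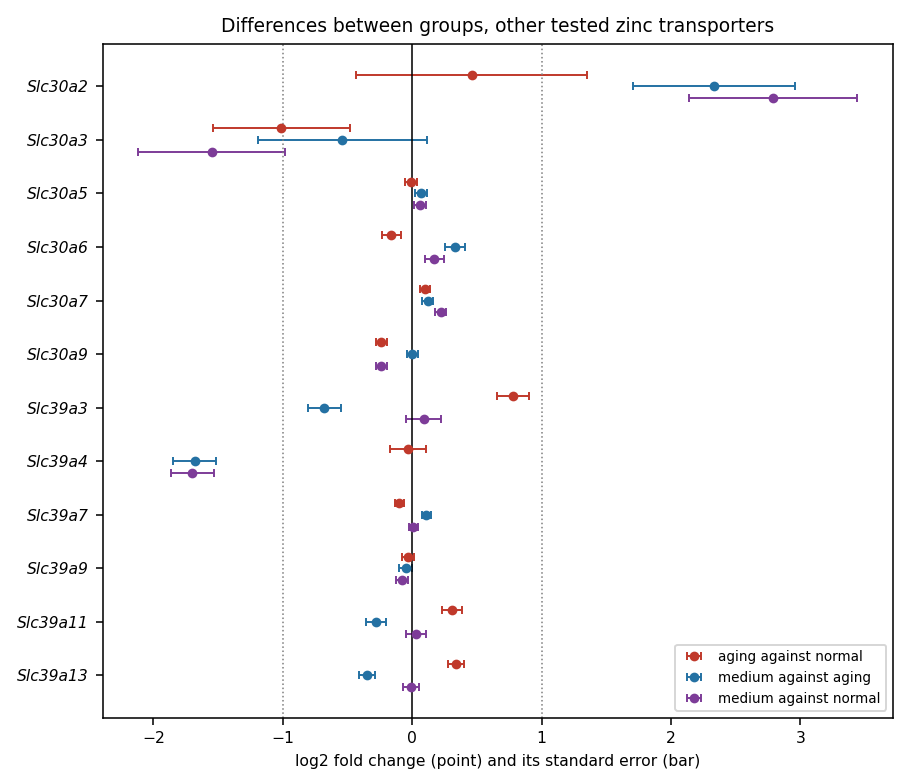
Log2 fold changes (points) with standard errors (bars) of the 12 further zinc transporter genes tested, in the 3 comparisons, with dotted lines at -1 and 1. Slc39a4 lies at -1.68 and -1.70 in the comparisons with medium, and the wide bars of Slc30a2 and Slc30a3 belong to genes with at most 20 counts in a library.

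The genes whose levels followed Mt1 most closely over the 9 libraries were Sc5d (Pearson r of log2 CPM 0.9991), Idi1 (0.9985), Fubp1 (0.996), Nampt (0.9957) and Lactb2 (0.9947), whereas Mt2 reached 0.90. Those nearest to Mt2 were Tpm3 (0.9969), Spcs3 (0.9968), Adsl (0.9964), Mfsd2a (0.9957) and Cct8 (0.9955). Slc39a14 was nearest to Ostc (0.9941), Card10 (0.994), Smim3 (0.9939), Il6st (0.9934) and Tgm2 (0.9933), and its r with Slc39a10 was 0.96. For Slc30a1, the nearest were Tcam1 (0.9328), Il10rb (0.9325), Slc9a8 (0.9301), Gm17655 (0.9282) and Cnot7 (0.9274). These are the highest of 12144 values for each gene, and 9 libraries in 3 groups carry little more than the 3 group means.

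Library totals were 18189610 to 22342283 counts. Markers of the labelled cell type gave a mixed result, with several absent or barely detected and others present. Pou4f1 reached at most 1.37 CPM and Nefm at most 1.04 CPM. Pou4f2 and Pou4f3, factors of retinal ganglion cells, were at 0 in all 9 libraries, and Slc17a6, Sncg, Nefh and Thy1 stayed at or below 0.303 CPM, while Rbpms had 45.5 to 61.6, Nefl 16.1 to 67.4, Isl1 11.1 to 21.6 and Tubb3 2.28 to 22.2 CPM. The 12 ganglion cell markers had summed levels of 143 to 154 CPM for normal, 102 to 105 for aging and 96.5 to 104 for medium-treated libraries. Within this sum, Tubb3 was 8.16-fold higher and Nefl 2.23-fold lower with USCs medium than in aging RGCs. Markers of other cells also moved with the groups. The 6 epithelial markers, mostly Krt8, Krt18 and Krt19, with Cdh1 and Cldn4 at or below 0.216 CPM, summed to 1047 to 1141, 1076 to 1103 and 1235 to 1284 CPM. Krt8 had means of 410, 560 and 714 CPM in the 3 groups, whereas Krt18 had 320, 252 and 281 and Krt19 had 365, 274 and 258 CPM. The 10 macrophage markers, mostly Cd68 and Lyz2, summed to 58.5 to 69.2, 44.6 to 50.9 and 30.8 to 53.8 CPM. Cd68 had means of 38.6, 41.4 and 31.2 CPM. C1qa, C1qb and C1qc stayed at or below 0.909 CPM. They were at 0 in aging RGCs and, in the medium group, were found in replicate 3 alone. Lyz2 counts in the medium group were 45, 20 and 241, also highest in replicate 3. The 6 mesenchymal markers, mostly Col3a1, summed to 427 to 508, 396 to 408 and 241 to 246 CPM. The 6 glial markers, mostly Glul and Sox9, summed to 123 to 130, 118 to 120 and 143 to 145 CPM, with Gfap, Rlbp1, Slc1a3 and Aqp4 at or below 0.152 CPM, and the 6 photoreceptor markers stayed near 0. Glul had means of 100.1, 95.8 and 128 CPM, and Sox9 had 25.9, 23.0 and 16.5 CPM. The part of these differences in the zinc genes was not tested, and in bulk RNA, fewer cells of a type and less RNA per cell cannot be told apart.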

How the data were processed

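RNA-sequencing values of 9 libraries were analysed, with groups taken from the labels. The authors deposited 2 values per gene and library, an expected count, which estimates the reads of the gene without normalization, and an FPKM. The submitters' processing notes name mm10 as the build, and the sources used here name no aligner or counting program. Expected counts were rounded, since 6.92% to 7.38% of the values of a library were not whole. Of 22322 gene identifiers, 22267 had a match in GENCODE M21 (GRCm38), from which gene coordinates were taken.

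Groups were compared in edgeR 4.0.16 (R 4.3.3), using filterByExpr, TMM factors (0.9563 to 1.034), a model with 1 mean per group over all 9 libraries, the quasi-likelihood F test and Benjamini-Hochberg adjustment over 12145 genes. Genes passed at an adjusted p under 0.05, and DEGs also had a log2 fold change of 1 or more in size. The scripts were tested on simulated data. Deviations from the group means in same-numbered replicates had correlations from -0.04 to 0.05, and the numbers were not treated as pairs. Alternatives were DESeq2 1.42.0, other scaling factors and filters, fits of just the compared groups, a replicate block, limma 3.58.1 on log2(FPKM + 1) and log2(FPKM + 0.1), and fits without each of the libraries.

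The 9 genes and all lists were chosen with earlier results of these data known. Named were the 9 genes, the DEGs of each list (at most 5 by absolute log2 fold change), and the 5 genes with the highest Pearson r to Mt1, Mt2, Slc30a1 and Slc39a14. Zinc genes named as higher or lower without being DEGs, Tfrc, Sco2 and single cell type markers were named after their values were seen. Motifs were searched in RefSeq promoters. Intervals came from the fitted model.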

Additional observations from a re-analysis of the deposited data

How the results depend on the processing

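Over 18 other settings, 448 of 486 log2 fold changes of the 9 genes kept their direction and their side of the threshold, 25 lost the call, 7 gained one and 6 changed sign. A required log2 fold change of 1 in size left 1, 1 and 2 genes higher and 0, 0 and 0 lower in aging against normal RGCs, the medium group against aging RGCs and the medium group against normal RGCs. In the medium group against aging RGCs, DESeq2 and the fit with no low-count filter each gave 1 gene lower in place of 2, because Mtf1 lost its call. In the medium group against normal RGCs, 2 genes were lower in place of 1 with no TMM factors (Mtf1 at -0.19, adjusted p = 0.0218), with limma on log2(FPKM + 1) and with limma on log2(FPKM + 0.1). Leaving out 1 library gave 4 to 4 genes higher and 3 to 3 lower in aging against normal RGCs, 5 to 6 higher and 1 to 2 lower in the medium group against aging RGCs, and 6 to 7 higher and 1 to 1 lower in the medium group against normal RGCs.

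The sign turned for Mtf1 in aging against normal RGCs with limma on log2(FPKM + 1) at -0.39 and on log2(FPKM + 0.1) at -0.45. It turned for Slc30a1 in the medium group against normal RGCs at -0.02 with limma on either scale, and at -0.01 and -0.05 without normal replicate 1 or 3, values that did not pass in any of these fits. Without normal replicate 2 it was 0.44 (edgeR adjusted p = 0.0443). The replicate number used as a block left the number of genes called at 4 higher and 3 lower, 6 higher and 2 lower, and 6 higher and 1 lower, and it changed no call of the 9 genes. Without TMM factors the median of all genes moved to -0.11 in the medium group against normal RGCs, and 34.7% of called genes were higher in place of 50.6%. In the medium group against aging RGCs, 35.9% were higher in place of 51.1%. With limma on log2(FPKM + 1), these shares were 36.3% and 37.7%. Of the 12 further zinc genes, 2 in place of 4 were higher with USCs medium against aging RGCs without TMM factors and 1 with limma, 5 in place of 3 were lower against normal RGCs without TMM factors, 1 in place of 3 was higher against normal RGCs with limma, and 1 in place of 2 was lower in aging RGCs with limma or without normal replicate 1. Depth limits Slc30a1, Slc30a2 and Slc30a3, and 3 libraries a group limit every exact permutation test to 0.1.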

Other observations

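In aging against normal RGCs, 23.5% of all genes tested were higher and 23.0% lower, and with USCs medium against aging RGCs 27.1% and 26.0% were, and the counts of these small lists are read beside those shares. Of 10 copper genes tested, 2 were higher and 0 lower in aging against normal RGCs, 2 and 2 with USCs medium against aging RGCs, and none was a DEG in any comparison. Of 10 iron genes tested, 2 were higher and 2 lower in aging RGCs, and 4 were higher and 3 lower with USCs medium against aging RGCs, counts near the shares of all genes in aging RGCs. Tfrc, the transferrin receptor, was 1.92-fold lower with USCs medium than in aging RGCs (log2 fold change -0.94, edgeR adjusted p = 9.22e-20), and the copper gene Sco2 was 1.93-fold higher in aging than in normal RGCs (log2 fold change 0.95, SE 0.182, edgeR adjusted p = 9.13e-05). The normal libraries of Sco2 were uneven, with counts of 172, 73 and 82 and 3.54 to 7.45 CPM, against 9.22 to 10.1 CPM in aging RGCs. Slc40a1, the iron exporter, had 2.14 ± 0.371 CPM in normal RGCs, 1.51 ± 0.731 in aging RGCs and 0.39 ± 0.239 with USCs medium (SD, n = 3), and it was the only iron gene that was a DEG (log2 fold change -1.94 against aging RGCs, SE 0.439, edgeR adjusted p = 0.000491). In the KEGG pathway Mineral absorption, which holds Mt1 and Slc30a1, 29 of 53 genes were tested, and 6 were higher and 12 lower with USCs medium against aging RGCs. In that comparison 1 was an upregulated DEG, which was not Mt1 (log2 fold change 0.71), and 7 were downregulated DEGs. The downregulated ones included Slc39a4, Slc40a1, the sodium pump subunit gene Atp1b2 (log2 fold change -2.34) and the calcium pump gene Atp2b4 (-1.05). Of the 12145 genes tested, 150 were upregulated and 511 downregulated DEGs.

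Of 4 other reported MTF1 target genes that were tested, 1 was higher and 2 lower with USCs medium against aging RGCs, and Pgf, a growth factor of placenta and vessels, was lower than in normal RGCs (log2 fold change -1.28, SE 0.259, edgeR adjusted p = 0.000112). Metallothionein genes are also known to respond to glucocorticoids, STAT3 and oxidative stress. Of 8 genes of the STAT3 response, 1 was higher and 6 were lower in aging RGCs, and 8 were higher with USCs medium against aging RGCs, with a median log2 fold change of 1.23. Lcn2, a siderophore-binding protein of the acute phase, rose from 4.33 ± 0.691 to 79.0 ± 3.84 CPM, and Osmr, the oncostatin M receptor, from 11.7 ± 0.954 to 79.4 ± 1.87 CPM (SD, n = 3). Socs3, the feedback inhibitor of this pathway, rose from 26.4 ± 1.45 to 95.6 ± 0.174 CPM, and Cebpd and Il4ra rose by 1.39 and 1.07 on the log2 scale. Of 7 glucocorticoid-responsive genes tested, 5 were lower in aging RGCs and 7 were higher with USCs medium, with a median of 0.89, and Tsc22d3 fell by 1.07 and then rose by 1.86 on the log2 scale, and Per1 rose by 1.03 with USCs medium. Of 8 genes of the oxidative stress response, 6 were lower in aging RGCs, and 3 were higher and 2 lower with USCs medium. Slc7a11, the cystine transporter, had 336 ± 24.5 CPM in normal RGCs, 97.4 ± 3.35 in aging RGCs and 221 ± 2.84 with USCs medium, and Osgin1 was lower with USCs medium than in normal RGCs (log2 fold change -1.23). Of all genes tested, 27.1% were higher with USCs medium against aging RGCs. The lists were chosen with earlier results of these data known, so their counts and medians describe the genes named and no more. Whether any of these responses bears on the zinc genes was not tested.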
